A study of Mus musculus with 20 samples.

Results

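Gene expression in established mouse epiblast stem cells was compared between culture days 27 to 30 and days 19 to 23, as a measure of how stable these cells are once made. The comparison takes 8 of the 20 mRNA libraries of the series, chosen by the day of differentiation given in the labels. Of these, 4 come from the later stage and 4 from the earlier one. In the series, embryonic stem (ES) cells kept in 2i medium were plated on fibronectin in N2B27 medium that contained activin A and Fgf2, passaged with Accutase, and sampled up to day 30. The lines were PGK, which is female, and E14, which is male, and each was followed in 2 experiments named diff2 and diff3. The earlier libraries are PGK diff2 at day 23, PGK diff3 at day 21, E14 diff2 at day 21 and E14 diff3 at day 19. The later libraries are PGK diff2 at day 29, PGK diff3 at day 29, E14 diff2 at day 27 and E14 diff3 at day 30. All 8 share the same medium and matrix, and no group was treated otherwise. As each sex is represented by 1 line, effects of sex and of line cannot be told apart. The labels name the experiments without saying whether they began from separate cultures, so the p-values measure only the spread between these libraries, which may in part be technical.

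Epiblast stem cells hold the primed form of pluripotency, which resembles the epithelium of the embryo after implantation and depends on activin and FGF rather than on the inhibitors of 2i. Cultures of such cells contain cells that switch on T (Brachyury), the T-box factor of the primitive streak, beside genes of the endoderm and mesoderm. In the interferon response, factors activated by the receptor bind a short promoter element and turn on antiviral genes, among them Isg15, a ubiquitin-like protein, and Usp18, the protease that removes it and damps the receptor. ES cells are known for a weak interferon response, which gains strength as they differentiate.

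The promoters of 3 interferon genes are shown because members of this response were lower at the later stage in most pairs of libraries, and because they carry the element through which the factors above act. Each window holds 250 bases before and 50 bases after the start given by RefSeq (GRCm38.p6). Capitals mark matches to GAAANNGAAA, the core of the interferon-stimulated response element, or to TTTCNNTTTC, the same word read on the other strand; matches that overlap count separately. The Isg15 window (chr4:156200769-156201068, minus strand) has 3 matches, which begin 78, 72 and 66 bases before the start. The Oas1a window (chr5:120907476-120907775, minus strand), of an enzyme that makes the activator of an antiviral RNase, has 2 matches at 20 and 14 bases before the start. The Ifit1 window (chr19:34640639-34640938, plus strand), of a protein that binds foreign RNA ends, has 2 matches at 104 and 85 bases before the start.
Isg15: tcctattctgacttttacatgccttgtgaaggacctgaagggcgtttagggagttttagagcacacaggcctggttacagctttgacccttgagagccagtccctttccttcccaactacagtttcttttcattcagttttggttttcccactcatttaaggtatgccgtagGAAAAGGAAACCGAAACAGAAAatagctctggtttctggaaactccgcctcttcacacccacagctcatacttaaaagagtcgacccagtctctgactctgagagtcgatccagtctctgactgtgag
Oas1a: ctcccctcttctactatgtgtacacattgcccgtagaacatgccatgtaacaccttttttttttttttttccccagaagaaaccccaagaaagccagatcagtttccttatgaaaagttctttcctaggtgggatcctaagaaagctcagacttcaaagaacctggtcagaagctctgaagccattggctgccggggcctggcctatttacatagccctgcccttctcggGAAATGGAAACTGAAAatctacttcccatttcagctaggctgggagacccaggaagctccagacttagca
Ifit1: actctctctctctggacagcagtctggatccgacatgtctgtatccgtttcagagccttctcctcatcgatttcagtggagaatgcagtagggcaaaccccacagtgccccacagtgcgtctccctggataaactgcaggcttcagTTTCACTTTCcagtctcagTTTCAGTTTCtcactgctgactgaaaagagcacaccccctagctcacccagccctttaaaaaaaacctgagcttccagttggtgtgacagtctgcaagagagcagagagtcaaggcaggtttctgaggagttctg

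A RefSeq window was found for 49 of the 61 interferon response genes of the list that are in the tables, and 21 of these windows (42.9%) hold the word. Over all 27025 genes with a window the share was 3.99%. Among the members that were lower at an unadjusted p under 0.05, 10 of 19 windows (52.6%) held it, and among the other tested members 11 of 26 (42.3%). A match is a description of the letters and not evidence of binding.

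No gene passed the test between the stages in the fit of both lines. Of 14496 genes tested with edgeR's quasi-likelihood test, with line as a block, 0 were called at an adjusted p under 0.05 (0%), and 843 had an unadjusted p under 0.05 (5.82%), of which 433 were lower and 410 higher at the later stage. DESeq2 on the same libraries called 57 genes (0.393%), 34 lower (0.235%) and 23 higher (0.159%), and limma-voom called 0. Tested on simulated data with 14193 genes, the edgeR fit called 61 of 100 genes with a 2-fold change and 87 of 100 with a 4-fold change. The median log2 fold change over all genes was -0.00337, with 50.6% of them below 0 and 49.4% above. A gene that missed the threshold was not thereby shown to be constant, and the levels below, in counts scaled to a common library total (CPM), are given with that limit. In bulk libraries, fewer cells of a type and less RNA per cell cannot be told apart.

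**Figure D1:**
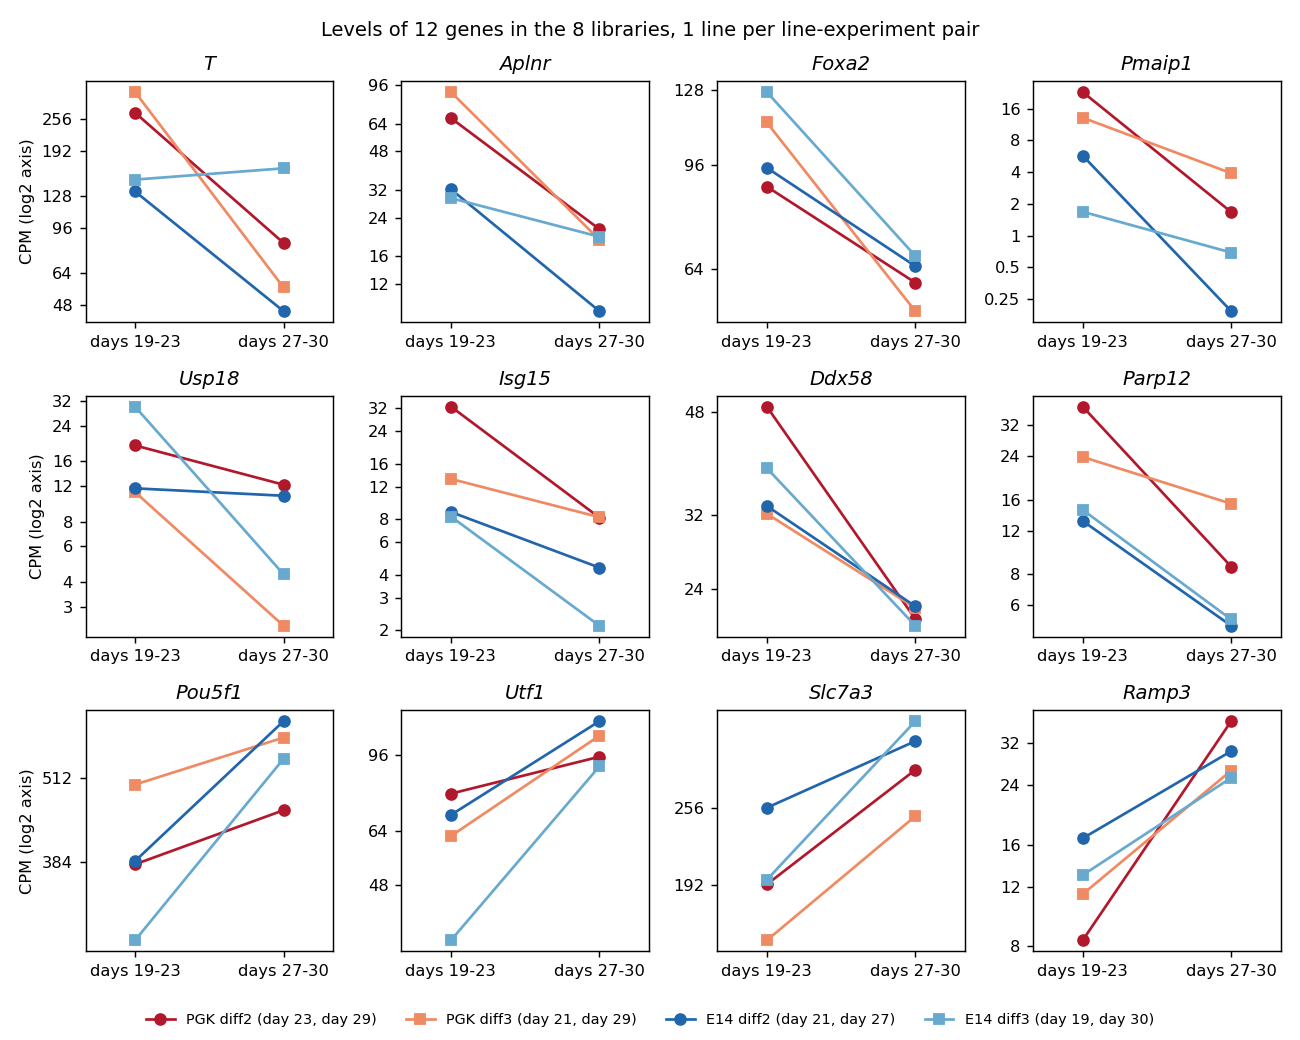
CPM (log2 axis) of 12 genes in the 8 libraries, with 1 line joining the earlier and the later library of each line and experiment. Foxa2, Aplnr and Ddx58 are lower in all 4 pairs and Ramp3, Slc7a3 and Pou5f1 higher in all 4, while T is lower in 3 and stands at 148.6 and 164.6 CPM in the E14 diff3 pair.

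Interferon response genes were the list with the lowest median. Of 63 listed genes, 61 are in the tables and 56 were tested. Of the 56, 26 (46.4%) were lower at an unadjusted p under 0.05, against 2.99% of all genes, and 1, the chemokine gene Cxcl10, was higher. Lower levels in all 4 pairs of libraries were measured for 31 of the 56, against 8.04% of all genes tested. The median log2 fold change of the list was -0.72 (-0.63 in PGK and -0.77 in E14). Its medians in the pairs were -0.65 in PGK diff2, -0.56 in PGK diff3, -0.42 in E14 diff2 and -1.04 in E14 diff3. By adjusted p none was called by edgeR, and DESeq2 called 8 of the 56 (14.3%, against 0.393% of all genes), all lower.

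Isg15 (GRCm38 chromosome 4, 156199424 to 156200818) measured 32.7 and 13.2 CPM in PGK and 8.76 and 8.28 CPM in E14 at the earlier stage, and 8.17, 8.21, 4.37 and 2.12 CPM in the same order later. All 4 later values lay below the lowest earlier one, by a narrow margin in PGK against E14. The mean was 15.7 ± 11.5 CPM (SD, n = 4) earlier and 5.72 ± 3.0 CPM (SD, n = 4) later. Its log2 fold change was -1.43 (SE 0.33, adjusted p = 0.465 with edgeR and 0.0143 with DESeq2). Parp12, an antiviral ADP-ribosyltransferase, went in the same order of pairs from 38.1 to 8.59, 23.8 to 15.4, 13.1 to 4.95 and 14.6 to 5.25 CPM.
The groups of Parp12 overlapped, because PGK diff3 at day 29 stood above both earlier E14 libraries, yet each pair went down (log2 fold change -1.40, SE 0.25, adjusted p = 0.306 with edgeR and 0.000343 with DESeq2). Ddx58, which encodes the viral RNA sensor RIG-I, measured 49.0, 32.2, 33.2 and 38.5 CPM earlier and 21.3, 22.3, 22.4 and 20.8 CPM later, with no overlap (log2 fold change -0.81, SE 0.17, adjusted p = 0.392 with edgeR and 0.0102 with DESeq2).

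Usp18 (chromosome 6, 121245906 to 121270917) measured 19.2 and 11.2 CPM in PGK and 11.7 and 30.1 CPM in E14 at the earlier stage. At the later stage it measured 12.2, 2.41, 10.8 and 4.36 CPM. It was lower in all 4 pairs, but little so in E14 diff2, and the groups overlapped through PGK diff2 at day 29. Its log2 fold change was -1.26 (SE 0.52, adjusted p = 0.840 with edgeR and 0.320 with DESeq2), and the difference of its change between the lines did not pass (adjusted p = 0.997). Leaving out single libraries moved the log2 fold change of Usp18 between -1.89 (without PGK diff2 at day 29) and -0.87 (without E14 diff3 at day 19).

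The effector genes shown above by their promoters were low. Oas1a measured 8.89, 5.72, 3.86 and 6.39 CPM earlier and 3.35, 1.37, 2.40 and 1.55 CPM later, and Ifit1 measured 7.54, 3.16, 1.30 and 2.10 CPM earlier and 1.93, 0.283, 0.481 and 0.326 CPM later. Oas1a did not overlap between the stages, while Ifit1 in PGK diff2 at day 29 exceeded E14 diff2 at day 21. Other members lower in all 4 pairs were the antiviral ubiquitin ligase Trim25 (mean 92.9 earlier and 62.9 CPM later), the GTPases Irgm1 (59.9 and 32.8 CPM) and Gbp2 (92.6 and 63.0 CPM), and the immunoproteasome subunit Psmb8 (26.8 and 14 CPM). Beta-2 microglobulin, B2m, the partner chain of MHC class I, stood at 72.4 and 54.3 CPM.

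Not every member was lower. The MHC gene H2-K1 had a mean of 106 CPM earlier and 112 CPM later, the RNA editor Adar 120 and 122 CPM, Stat2 37.0 and 35.4 CPM, and Bst2, which tethers budding viruses, 105 and 103 CPM. Cxcl10 measured 7.16, 4.12, 2.67 and 0.869 CPM earlier and 8.84, 9.43, 6.44 and 4.84 CPM later, higher in all 4 pairs. Summed over the 61 genes in the tables, the list stood at 1813, 1345, 1103 and 1260 CPM earlier and at 1175, 1140, 917 and 912 CPM later. Each pair was lower, and both PGK libraries of day 29 lay above E14 diff2 at day 21. Several members have close paralogs (the Oas1, Ifit and H2 genes), and how the authors counted reads shared between copies is not given in the sources used here.

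The count of 26 lower members ranged from 19 to 28 over the settings tried, except for 10 when all 20 libraries shared 1 fit. Of the 56 tested members, 8 lie on chromosome 11, whose genes were higher in the PGK diff2 pair as described further on.

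**Figure D2:**
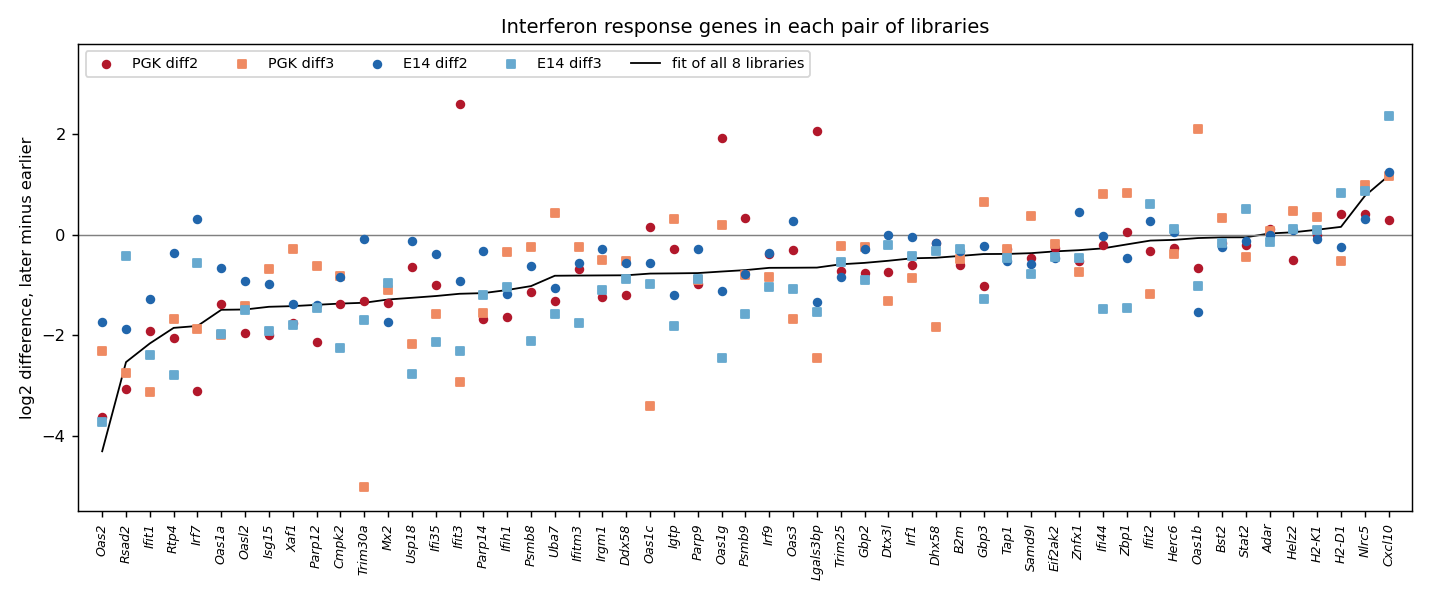
Log2 difference of the tested interferon response genes but 1, later minus earlier library, in the 4 pairs, with the fitted log2 fold change as a line; genes are ordered by that fit. In all, 50 of the 56 have a fitted value below 0, against 50.6% of all genes. The points of some members lie on both sides of 0, among them Oas1b and Oas1g, which have low counts, and the more highly expressed Lgals3bp, Gbp3 and Igtp.

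Over the whole course in 20 libraries, Usp18 stood at or below 0.140 CPM in all libraries of days 0 and 4. E14 diff3 had no Usp18 count on either day, but its levels came in coarse steps of 0.296 CPM at day 0 and 0.495 CPM at day 4. These libraries are shallower, and low levels there cannot be told from 0. Usp18 reached 3.01 to 14.1 CPM at day 10 before the values above. The summed interferon genes ranged from 553 to 1300 CPM at day 4 and from 1131 to 1955 CPM at day 10. The sums of days 27 to 30, 912 to 1175 CPM, lay within the range of days 0 and 4, which was 553 to 1315 CPM. The E14 sums of days 19 to 23, 1103 and 1260 CPM, lay within that range too, and the PGK sums of 1813 and 1345 CPM lay above it. No test was made of these sums.

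**Figure D3:**
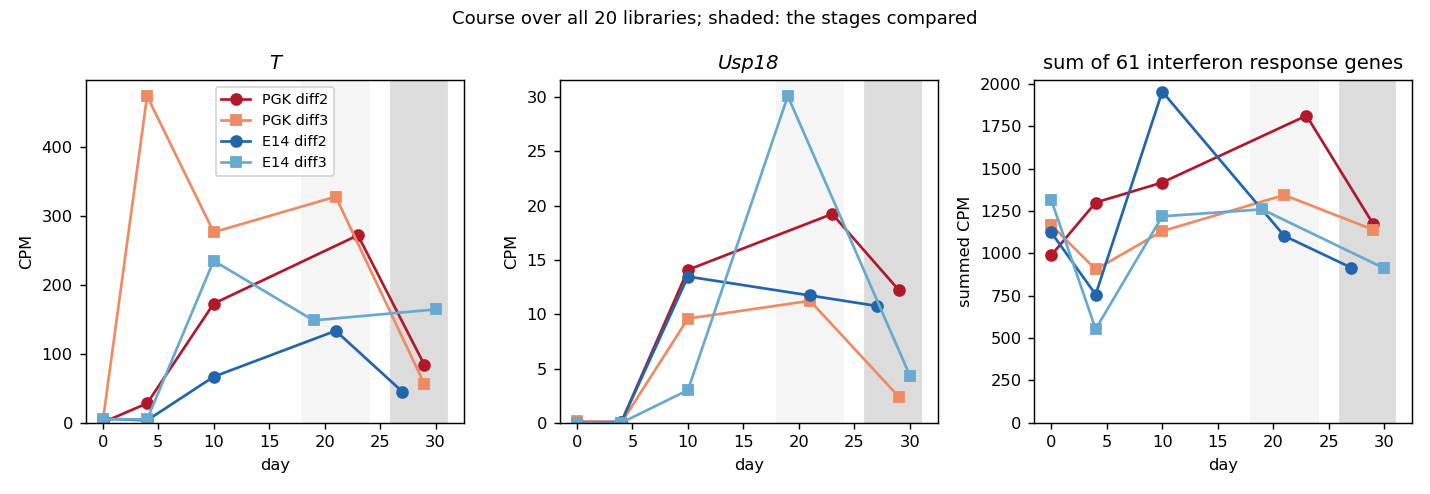
CPM of T and Usp18 and summed CPM of 61 interferon response genes against the day of differentiation in all 20 libraries, 1 line per line and experiment, with the stages compared shaded. Usp18 peaks at 30.1 CPM in E14 diff3 at day 19, and T peaks at 474 CPM in PGK diff3 at day 4.

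T was lower in 3 of the 4 pairs and did not pass the test. T (chromosome 17, 8434423 to 8442496) measured 272 and 328 CPM in PGK and 134 and 149 CPM in E14 at the earlier stage. At the later stage it measured 83.8 and 56.0 CPM in PGK and 45.2 and 165 CPM in E14. The PGK libraries were lower in both pairs with no overlap, E14 diff2 was lower, and E14 diff3 was slightly higher at day 30. The log2 fold change was -1.26 (SE 0.46, adjusted p = 0.800), with -2.09 in PGK and -0.43 in E14, and the difference between the lines did not pass (adjusted p = 0.990). In the PGK libraries alone, edgeR called T (-2.09, adjusted p = 0.0205) and Aplnr (-1.95, adjusted p = 0.0415), both lower. Without the later diff3 library of E14 it called these same genes in the fit of both lines (T -1.90 and Aplnr -1.87, each with an adjusted p = 0.00181). With any other single library left out, neither gene was called. The log2 fold change of T was -0.95 without PGK diff3 at day 29, and that of Aplnr was -1.37 without PGK diff3 at day 21.

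Of 33 primitive streak and mesoderm genes, 28 were tested. At an unadjusted p under 0.05, 7 (25%) were lower and 1, the growth factor gene Fgf4, was higher, against 2.99% and 2.83% of all genes. Of the 28, 24 had a fitted value below 0, against 50.6% of all genes. The median was -0.47 (-0.87 in PGK and -0.13 in E14), and the difference between lines of this median was not tested. Without PGK diff2 at day 29 the median was -0.31. The 7 counted genes became 2 without PGK diff3 at day 21, 4 without E14 diff3 at day 19, 4 without PGK diff2 at day 29, and 4 with all 20 libraries in 1 fit. With single lines, the count was 13 in PGK alone and 3 in E14 alone.

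Tbx3, a T-box factor that the naive pluripotency list also holds, measured 1.79, 2.64, 3.45 and 16.9 CPM earlier and 0.293, 1.09, 0.913 and 0.814 CPM later. All later values lay below the earlier ones, and E14 diff3 at day 19 stood apart (log2 fold change -2.64, SE 0.70, adjusted p = 0.662 with edgeR and 0.0164 with DESeq2). Snai1, the repressor of E-cadherin that drives cells out of an epithelium, measured 6.33, 8.28, 4.16 and 3.78 CPM earlier and 3.35, 0.566, 2.07 and 1.87 CPM later, with no overlap (log2 fold change -1.45, SE 0.53, adjusted p = 0.768). Eomes, a streak and endoderm factor at a mean of 156 CPM earlier and 124 CPM later, and Mixl1, a homeobox factor of the streak, were among the members with a p above 0.05. Mixl1 went opposite ways in the lines, from 28.1 to 11.3 and 74.6 to 27.3 CPM in PGK and from 5.09 to 15.4 and 1.69 to 5.70 CPM in E14, and the difference between the lines did not pass (adjusted p = 0.990). The summed list stood at 1226, 1600, 1172 and 1327 CPM earlier and 843, 1039, 1107 and 733 CPM later.

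Aplnr, the receptor gene of apelin that nascent mesoderm expresses, had 68.0, 89.2, 32.3 and 29.4 CPM earlier and 21.3, 19.06, 9.04 and 19.7 CPM later. Every later library was below every earlier one (log2 fold change -1.53, SE 0.25, adjusted p = 0.306 with edgeR and 1.89e-05 with DESeq2). The gene of its ligand, Apln, which was picked after its values were seen, measured 46.9, 70.9, 20.0 and 15.5 CPM earlier and 22.0, 25.2, 8.94 and 13.8 CPM later. It was lower in all 4 pairs, and the groups overlapped between the lines.

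Genes of the definitive endoderm were also lower in part. Of 14 tested, 5 (35.7%) were lower at an unadjusted p under 0.05, against 2.99% of all genes, and 0 were higher. The median was -0.58 (-0.36 without E14 diff3 at day 19). Foxa2, a pioneer factor of the endoderm (chromosome 2, 148042877 to 148046969), measured 88.2, 113, 94.8 and 127 CPM earlier and 60.8, 54.4, 64.8 and 67.4 CPM later, with no overlap. Its log2 fold change was -0.77 (SE 0.13, adjusted p = 0.306 with edgeR and 0.000303 with DESeq2), the smallest p among the genes named in the edgeR fit. The size was alike in the lines, at -0.79 in PGK and -0.75 in E14.

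Sox17, the partner factor of early endoderm, measured 98.8, 107, 101 and 200 CPM earlier and 83.2, 68.7, 57.5 and 57.4 CPM later. The groups did not overlap, and E14 diff3 at day 19 stood highest (log2 fold change -0.90, SE 0.25, adjusted p = 0.695 with edgeR and 0.0231 with DESeq2). Without that library the log2 fold change was -0.58. Gata6, which endoderm of the embryo and of the yolk sac both use, measured 50.0, 84.5, 83.1 and 127 CPM earlier and 52.4, 44.6, 83.1 and 45.4 CPM later, lower in 2 pairs and level in the other two (log2 fold change -0.58, SE 0.23, adjusted p = 0.818). Cpm, a membrane carboxypeptidase gene used as an endoderm marker, measured 22.1, 11.1, 42.2 and 125 CPM earlier and 13.7, 8.59, 4.66 and 15.6 CPM later (log2 fold change -1.82, SE 0.69, adjusted p = 0.819, and -1.20 without E14 diff3 at day 19). Cer1, a secreted Nodal inhibitor, went the other way, with means of 356 and 405 CPM. The count of 5 became 3 without E14 diff3 at day 19, 3 with each line and experiment pair as a replicate block, 3 in PGK alone, 2 without the low-count filter and 1 with all 20 libraries in 1 fit.

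Among 15 tested genes of the BMP response, 14 had a fitted value below 0, against 50.6% of all genes, and the median was -0.56. At an unadjusted p under 0.05, 3 (20%) were lower and 1, the inhibitory Smad7, was higher, against 2.99% and 2.83% of all genes. Id1, a direct BMP target, measured 33.3, 35.6, 69.2 and 170 CPM earlier and 23.8, 32.4, 53.3 and 30.8 CPM later (log2 fold change -0.90, SE 0.36, adjusted p = 0.834). Id3, of the same family, measured 54.8, 50.3, 67.01 and 143 CPM earlier and 46.1, 47.3, 51.3 and 42.2 CPM later (log2 fold change -0.66, SE 0.27, adjusted p = 0.827). In both genes E14 diff3 at day 19 was the library far above the others, and without it the log2 fold changes were -0.46 for Id1 and -0.30 for Id3. The ligand gene Bmp7 had 30.4, 32.8, 28.8 and 38.2 CPM earlier and 21.7, 5.94, 11.5 and 28.3 CPM later. The later values were lower in each pair and all below the lowest earlier one (log2 fold change -0.97, SE 0.39, adjusted p = 0.827). Smad7 measured 26.6, 26.2, 23.5 and 18.7 CPM earlier and 24.8, 66.8, 36.1 and 32.9 CPM later (log2 fold change 0.76, SE 0.25, adjusted p = 0.742). PGK diff3 at day 29 stood far above the others, and without it the log2 fold change of Smad7 was 0.41. The count of 3 became 0 without E14 diff3 at day 19, 1 with the replicate block, 1 with all 20 libraries in 1 fit and 6 in E14 alone. It was 0 also without E14 diff2 at day 27 and without the low-count filter. The summed list was 623 CPM in E14 diff3 at day 19 and 219 to 330 CPM in the other 7 libraries.

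Extraembryonic endoderm genes overlapped the endoderm lists in Sox17 and Gata6. Of 18 tested, 6 (33.3%) were lower and 0 higher at an unadjusted p under 0.05, against 2.99% and 2.83% of all genes. The median of -0.43 was -0.14 in PGK and -0.62 in E14.

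Most genes of core pluripotency had a fitted value above 0. Of 11 tested, 3 (27.3%) were higher and 1, Sall4, was lower at an unadjusted p under 0.05, against 2.83% and 2.99% of all genes. A fitted value above 0 was found for 9, against 49.4% of all genes. The median was 0.44 (0.20 without E14 diff3 at day 19). Pou5f1, which encodes Oct4 (chromosome 17, 35506018 to 35510772), measured 381, 501, 385 and 293 CPM earlier and 459, 588, 622 and 547 CPM later. Each pair was higher, and the groups overlapped within PGK. Its log2 fold change was 0.53 (SE 0.15, adjusted p = 0.695), with 0.27 in PGK and 0.79 in E14.

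Utf1, a chromatin factor restricted to pluripotent cells, measured 78.1, 62.3, 69.7 and 35.7 CPM earlier and 95.1, 106, 115 and 90.4 CPM later, with no overlap (log2 fold change 0.75, SE 0.20, adjusted p = 0.662). L1td1, an RNA-binding protein of pluripotent cells, measured 192, 178, 127 and 70.2 CPM earlier and 221, 235, 234 and 146 CPM later (log2 fold change 0.63, SE 0.22, adjusted p = 0.742, and 0.41 without E14 diff2 at day 27). Sall4, a zinc finger repressor, measured 248, 246, 277 and 357 CPM earlier and 209, 207, 220 and 180 CPM later, with no overlap (log2 fold change -0.45, SE 0.13, adjusted p = 0.695). Nanog was uneven, at 53.4, 68.4, 58.7 and 24.2 CPM earlier and 74.4, 46.8, 62.9 and 112 CPM later, and Sox2 had means of 52.1 and 55.8 CPM. With all 20 libraries in 1 fit, 0 core genes were higher at an unadjusted p under 0.05.

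Primed pluripotency genes stayed high at both stages. Fgf5 measured 373, 331, 304 and 380 CPM earlier and 327, 352, 411 and 252 CPM later, and the de novo methyltransferase gene Dnmt3b measured 727, 743, 871 and 1007 CPM earlier and 872, 839, 1034 and 658 CPM later. Both genes overlapped fully between the stages. Otx2 had 232 and 236 CPM in PGK earlier and 265 and 238 CPM later, and in E14 373 and 536 CPM earlier and 299 and 244 CPM later. Of 31 primed genes, 5 (16.1%) were higher and 2, Foxa2 and Id1, lower at an unadjusted p under 0.05, against 2.83% and 2.99% of all genes. Their median was 0.17 (0.09 without E14 diff3 at day 30).

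The higher primed genes included Etv5 and Lin28b, while targets of FGF signalling went both ways. Etv5, an ETS factor induced by ERK, measured 105, 113, 82.8 and 60.4 CPM earlier and 129, 158, 142.2 and 118 CPM later, with no overlap (log2 fold change 0.64, SE 0.14, adjusted p = 0.465 with edgeR and 0.0164 with DESeq2). Lin28b, which blocks the maturation of let-7, measured 165, 174, 152 and 99.6 CPM earlier and 210, 201, 178 and 182 CPM later (log2 fold change 0.41, SE 0.12, adjusted p = 0.708). Dusp4, an ERK phosphatase, went the other way, with 149, 141, 99.2 and 103 CPM earlier and 65.1, 100, 53.4 and 62.9 CPM later (log2 fold change -0.80, SE 0.14, adjusted p = 0.306 with edgeR and 0.000343 with DESeq2). It was lower in each pair, and PGK diff3 at day 29 just exceeded E14 diff2 at day 21. Of 20 FGF and ERK targets, 4 (20%) were higher and 1 was lower at an unadjusted p under 0.05, against 2.83% and 2.99% of all genes. Their median was 0.27 (0.01 in PGK and 0.26 in E14). Without E14 diff3 at day 19 this median was 0.12. The pair medians were -0.185 in PGK diff2, 0.17 in PGK diff3, 0.194 in E14 diff2 and 0.414 in E14 diff3.

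The label of epiblast stem cells was checked against its markers. Cldn6, a tight junction gene of the epiblast, stood at 166 to 372 CPM beside the levels above, and the naive factors Klf4 (1.91 to 4.56 CPM), Esrrb (2.20 to 7.40 CPM), Zfp42 (0.256 to 4.22 CPM), Tdh (0.047 to 0.575 CPM) and Prdm14 (0 to 0.081 CPM) were near 0. Others of the naive list were not near 0, among them Tfcp2l1 at 6.90 to 18.5 CPM, Klf5 at 14.5 to 21.7 CPM, Spp1 at 12.1 to 40.1 CPM, Fgf4 at 7.10 to 26.6 CPM and Zfp57 at 65.9 to 110.4 CPM. Summed naive genes stood at 161 to 200 CPM earlier and 180 to 233 CPM later. Of the 17 tested, 2 were higher and 2 lower at an unadjusted p under 0.05, against 2.83% and 2.99% of all genes. Xist, the RNA that silences an X chromosome, measured 1339, 981, 412 and 939 CPM in the PGK libraries of day 23, day 21, day 29 (diff2) and day 29 (diff3), and 1.38 to 2.41 CPM in E14. Y-linked genes summed to 272 to 404 CPM in E14 and at most 0.189 CPM in PGK, matching the labelled sexes.

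Few markers of other cell types passed an unadjusted p under 0.05, and their part in the results above was not tested. Over all genes, 2.83% were higher and 2.99% lower at that threshold. Neuroectoderm genes had 2 higher and 1 lower of 17 at an unadjusted p under 0.05 (median 0.05), and summed to 508 to 741 CPM earlier and 738 to 847 CPM later. Trophoblast genes had 1 lower of 13. A fitted value below 0 was found for 11 of them (84.6%), against 50.6% of all genes, and the list median was below 0 in all 4 pairs. That median was -0.30 in the fit and -0.51 without PGK diff3 at day 29, and the list summed to 261 to 336 CPM earlier and 185 to 277 CPM later. Fitted within each line, the trophoblast median was 0.22 in PGK and -0.67 in E14, so its PGK sign depends on how the median was taken. Epithelial genes had 1 higher and 1 lower of 22 (median -0.18). Feeder fibroblast and blood markers had 0 of 10, summed to 49.1 to 200 CPM earlier and 77.9 to 203 CPM later, and 1 of their 15 genes had no count in any library. Smooth muscle and mesenchyme genes had 1 higher of 29 (median 0.12). Without E14 diff3 at day 30 the medians became -0.03 for smooth muscle and mesenchyme, -0.03 for feeder and blood markers (0.35 in the fit) and -0.06 for epithelial genes. The neuroectoderm median became 0.31 without E14 diff2 at day 27 and -0.16 without PGK diff3 at day 29.

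The E14 diff3 pair had the highest or lowest median in 4 of these lists. Its medians were 1.26 for feeder and blood markers, 1.18 for smooth muscle and mesenchyme, -0.74 for epithelial and -1.12 for trophoblast genes, against -1.13 to 0.14, -0.35 to -0.09, -0.14 to 0.26 and -0.53 to -0.10 in the other 3 pairs. In the neuroectoderm list the E14 diff2 pair stood apart, at -1.13 against 0.18 to 0.52. The E14 diff3 libraries are 11 days apart, the longest interval of the 4. The interferon median was also lowest in this pair, at -1.04, and without its day 19 library the list median was -0.55.

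**Figure D4:**
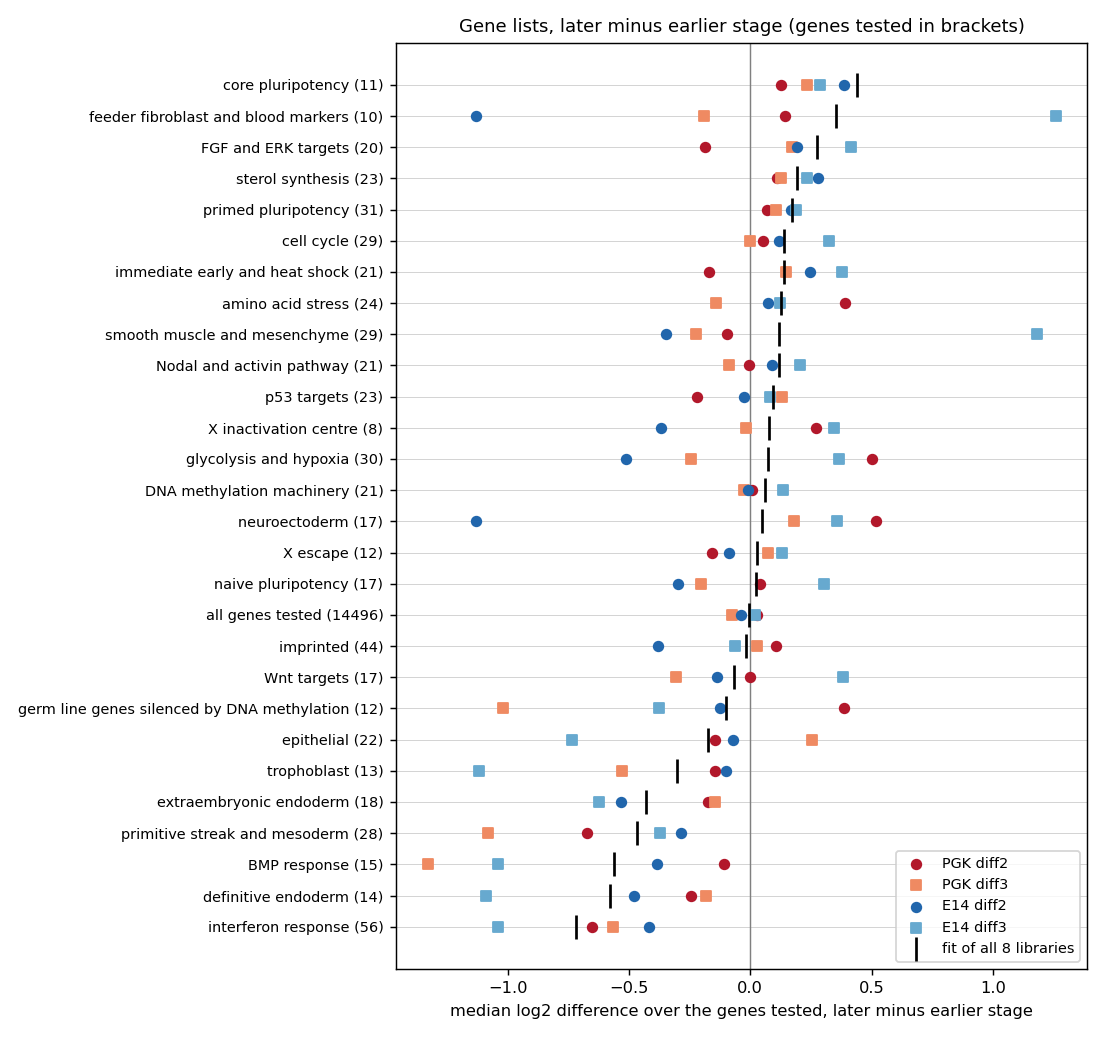
Median log2 difference (later minus earlier stage) of each gene list with at least 8 genes tested, in the 4 pairs of libraries (points) and in the fit of all 8 (black bars); the number of genes tested is in brackets. The interferon response is below 0 in all 4 pairs, and feeder and smooth muscle genes reach 1.26 and 1.18 in E14 diff3.

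Most sterol synthesis genes had a fitted value slightly above 0. Of 23 tested, 20 had a fitted value above 0, against 49.4% of all genes, and the median was 0.19. At an unadjusted p under 0.05, 5 (21.7%) were higher and 1 was lower, against 2.83% and 2.99% of all genes. Lss, the enzyme that closes the sterol ring, measured 147, 166, 123 and 84.7 CPM earlier and 186, 167, 189 and 166 CPM later (log2 fold change 0.49, SE 0.15, adjusted p = 0.708). Dhcr7, which acts at the last step to cholesterol, was 110, 111, 151 and 113 CPM earlier and 163, 111, 172 and 178 CPM later (log2 fold change 0.36, SE 0.13, adjusted p = 0.742). The count of 5 became 0 with all 20 libraries in 1 fit, 0 in PGK alone and 2 in E14 alone.

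The genes with the smallest p among those with 1 direction in all 4 pairs were led, on the higher side, by Ramp3, Slc7a3 and Bdh1. Higher levels in all 4 pairs were measured for 898 genes (6.19%), so the direction alone singles none of them out. Ramp3, which alters the ligand choice of calcitonin-family receptors, had 8.31, 11.4, 16.7 and 13.0 CPM earlier and 37.2, 26.6, 30.3 and 25.3 CPM later, with no overlap (log2 fold change 1.30, SE 0.23, adjusted p = 0.306 with edgeR and 0.000303 with DESeq2). It lies on chromosome 11, and its largest difference is in the PGK diff2 pair. Slc7a3, a transporter of arginine and lysine, measured 192, 156, 256 and 196 CPM earlier and 295, 248, 328 and 353 CPM later (log2 fold change 0.62, SE 0.11, adjusted p = 0.306 with edgeR and 0.00125 with DESeq2). The groups met only where PGK diff3 at day 29 lay under E14 diff2 at day 21.

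Bdh1, which interconverts the ketone bodies, measured 11.5, 20.0, 30.6 and 19.6 CPM earlier and 28.4, 34.7, 53.2 and 47.8 CPM later (log2 fold change 1.01, SE 0.20, adjusted p = 0.370 with edgeR and 0.00347 with DESeq2). Enpp3, an ectonucleotidase, measured 94.0, 74.6, 194 and 196 CPM earlier and 270, 146, 285 and 311 CPM later (log2 fold change 0.96, SE 0.20, adjusted p = 0.462 with edgeR and 0.0011 with DESeq2). Both overlapped only between the lines. The others on this side were Rbpms2, Slc27a2, St6gal2, Etv5, Mkrn1 and Trap1a, with log2 fold changes of 0.44, 0.74, 1.09, 0.64, 0.50 and 1.07. DESeq2 called each of these others too, with adjusted p from 0.0102 to 0.0274. As the genes of both sides were picked by their edgeR p in the same libraries, such DESeq2 calls are not separate support.

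On the lower side the rule named Foxa2, Aplnr, Dusp4, Parp12, Arsi, Pmaip1, Aff1, Rin3, Parvb and Ap3b2. Pmaip1, which encodes the BH3-only cell death protein Noxa, measured 23.1, 13.2, 5.75 and 1.69 CPM earlier and 1.68, 3.92, 0.192 and 0.692 CPM later. It was lower in each pair, and the groups overlapped because E14 started low (log2 fold change -2.84, SE 0.52, adjusted p = 0.306 with edgeR and 0.000127 with DESeq2). It was the 1 gene of 23 tested p53 targets that was lower at an unadjusted p under 0.05, and that list had a median of 0.10. Arsi, a sulfatase gene, measured 16.7, 7.20, 11.9 and 17.2 CPM earlier and 4.48, 3.49, 2.84 and 3.62 CPM later, with no overlap (log2 fold change -1.87, SE 0.34, adjusted p = 0.306 with edgeR and 0.000343 with DESeq2). Aff1, Rin3, Parvb and Ap3b2 had log2 fold changes of -0.57, -1.08, -1.21 and -1.28. Their adjusted p ran from 0.321 to 0.370 with edgeR and from 0.00162 to 0.00359 with DESeq2. Over all genes, 204 (1.41%) had 4 later values below the 4 earlier ones and 163 (1.12%) had them above.

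The lines were compared by the difference of their changes. No gene passed (0 of 14496 with edgeR, 0%), and 656 (4.53%) had an unadjusted p under 0.05, while DESeq2 called 31. On simulated data with 14178 genes, this test recovered 8 of 100 genes whose changes differed 2-fold and 59 of 100 that differed 4-fold, so most differences of the smaller size would be missed. It also called 4 unchanged genes, and its planted changes ease the threshold in the same way as in the self-test between the stages. In E14 alone, edgeR called 1 gene, the metallothionein Mt1 (log2 fold change -2.47, adjusted p = 0.0145), which was named after its values were seen. Mt1, which binds zinc and copper, measured 328 and 368 CPM earlier and 72.5 and 52.9 CPM later in E14, against 132 and 101 CPM and then 72.4 and 98.7 CPM in PGK. Its difference between the lines had the smallest p of that test and did not pass (adjusted p = 0.384).

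The 8 libraries form a balanced layout of line, experiment and stage, so the variation of log2 CPM between them splits into 7 parts. Line took 29% of the sum of squares, stage 13.5% and experiment 9.58%. The products took 10.1% (line by experiment), 11.2% (line by stage), 12.2% (experiment by stage) and 14.4% (all of them). The share of stage was thus close to those of the products that include stage, which hold the disagreement between pairs. Between the stages of 1 line and experiment, 4.36% to 12.1% of 11982 genes differed over 2-fold (median 8.94%), against 4.92% to 11.7% between experiments at 1 line and stage (median 5.89%). The lowest share was that of E14 diff2, 6 days apart, and the highest that of E14 diff3, 11 days apart. The 11.7% came from PGK diff2 and PGK diff3, both at day 29, so a share of that size also arose without any interval. Total counts were 15643156 to 26936415 per library, where 3 counts equal 0.111 to 0.192 CPM, and Pearson r over genes between these pairs was 0.930 to 0.974.

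Chromosome 11 stood apart in 1 pair. In PGK diff2, the median log2 difference of its 960 genes with at least 2 CPM was 0.33 relative to all autosomes, a ratio of 1.26, and 825 of them (85.9%) were higher, against 46.7% of the genes on the other autosomes. In PGK diff3, E14 diff2 and E14 diff3 the same median was 0.07, 0.02 and -0.06. No other autosome lay further from 0 than 0.0901 in any pair. Split into 8 runs of 120 genes along the chromosome, the PGK diff2 medians were 0.29 to 0.43, so the shift spans its whole length. The library of PGK diff2 at day 29 was also above the other PGK libraries of day 10 and later, with chromosome 11 medians of 0.22 against diff2 at day 10, 0.35 against diff3 at day 10, 0.32 against diff3 at day 21 and 0.23 against diff3 at day 29. Copy number was not measured, and the cause was not tested.

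In the fit of both lines, 85 of 1160 chromosome 11 genes (7.33%) were higher at an unadjusted p under 0.05, against 2.44% of the other genes, and the medians of the fitted values were 0.10 and -0.01. Without the genes of chromosome 11, edgeR again called 0 genes. Of the genes DESeq2 called, Ramp3, Alox12, Fasn, Itga3, Ikzf1, Trim25 and Irgm1 lie there, and the interferon genes Trim25 and Irgm1 were lower all the same.

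**Figure D5:**
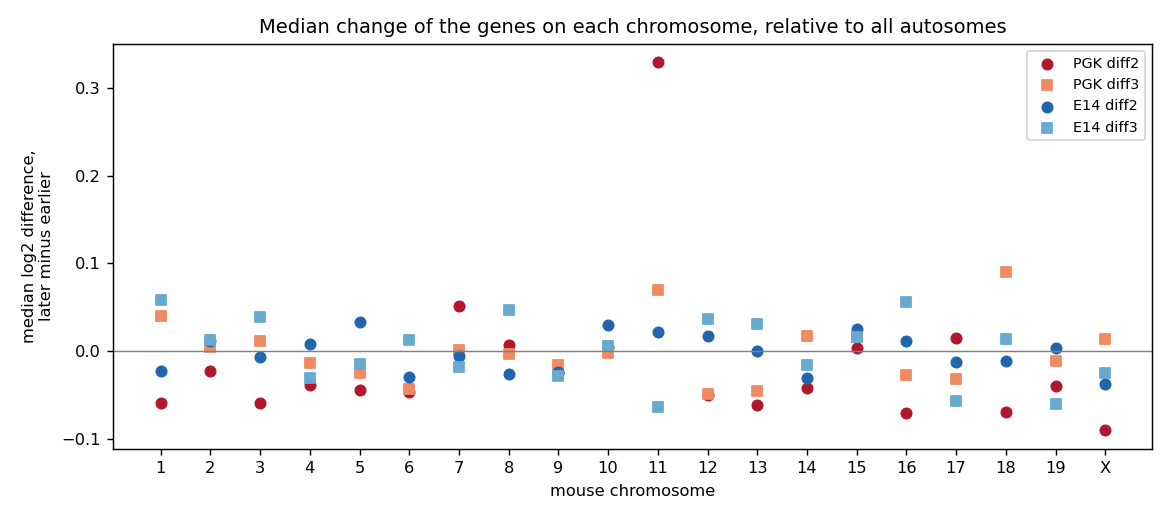
Median log2 difference (later minus earlier library) of the genes on each chromosome with a mean of at least 2 CPM, relative to the median of all autosomal genes, in the 4 pairs. Chromosome 11 in PGK diff2 stands at 0.33, and the other points lie within about 0.09 of 0.

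Of the 4 steps between neighbouring stages, the one from days 19 to 23 to days 27 to 30 had the fewest genes at an unadjusted p under 0.05. With the same fit in both lines, day 4 against day 0 gave 2169 called genes of 14226 (15.2%), and day 10 against day 4 gave 297 of 14066 (2.11%). Days 19 to 23 against day 10 gave 0 of 14586, with 1855 at an unadjusted p under 0.05, against 843 for the later step. These steps share libraries, so their counts are not independent of each other. They also span unlike numbers of days, with a mean of 7.75 for the last step, and E14 diff3 is shallower at days 0 and 4. The counts are therefore no measure of a rate of change.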

How the data were processed

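Raw counts per gene were deposited by the authors, per the file headers, in 1 table per line with 23361 entries each. Spreadsheet dates replace 27 gene names, and 4 entries repeat a name. CASAVA 1.8.2, Cuffdiff, DESeq2 and GRCm38 (mm10) are named in the submitters' processing notes. The aligner, the annotation and any strand setting were not given in the sources used here, so overlapping antisense genes may share reads. Deposited normalized and variance-stabilized tables were not used. Coordinates come from GENCODE M21 (GRCm38) by symbol for 21699 entries, and from RefSeq by symbol for 211 and by synonym for 1288, and 163 had none.

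The tables were joined on gene name. The main test was edgeR 4.0.16 (R 4.3.3): TMM, filterByExpr with a minimum count of 10, a robust quasi-likelihood fit of the 8 libraries with line and stage (5 residual degrees of freedom), and Benjamini-Hochberg adjustment at 0.05. The line by stage product had 4. SE is the log2 fold change over the root of F, so it is approximate. CPM are counts scaled to a common library total without size factors, which were 0.980 to 1.019. Log2 differences between libraries use a prior count of 2. Self-tests used simulated counts with 200 changed genes, drawn from those with a mean of at least 2 CPM. The alternatives were a replicate block, RLE factors, no filter, DESeq2 1.42.0, limma-voom 3.58.1, all 20 libraries in 1 fit, day as a number, each line alone, and leaving out each library. A crossed block, a fit without chromosome 11 and the list counts under each setting were added after the data were seen.

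Libraries of the same line with the same experiment name come from the same experiment per the labels, which pairs them. The deviations of paired libraries from their group means had correlations over 11982 genes of -0.0864 in PGK and -0.226 in E14. The comparison, its markers and the 29 gene lists were chosen with earlier results of these data known. The rule named T, Usp18 and 11 identity genes, up to 4 genes per list with the smallest p, and up to 10 higher and 10 lower genes with the smallest p and the same direction in all 4 pairs, each with a mean of at least 2 CPM at the higher stage and without predicted genes, Rik clones and pseudogenes. Not all of them are printed. Gapdh stood at only 1.17 to 2.28 CPM and was left aside.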

Additional observations from a re-analysis of the deposited data

Results flagged for a closer look

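Medians of 2 gene lists pointed one way in both PGK pairs and the other way in both E14 pairs, and the difference between the lines was not tested. The Y-linked list, whose sum in PGK was at most 0.189 CPM, was left out of this search. For the Nodal and activin pathway the median log2 differences, later minus earlier, were -0.00694 in PGK diff2 and -0.0864 in PGK diff3, and 0.0896 in E14 diff2 and 0.206 in E14 diff3. For imprinted genes they were 0.105 in PGK diff2 and 0.0291 in PGK diff3, and -0.38 in E14 diff2 and -0.0631 in E14 diff3. The fitted medians of these lists within each line were 0.12 and 0.11 (PGK and E14) for the Nodal pathway, so its PGK sign depends on how the median was taken, and 0.09 and -0.14 for imprinted genes.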

How the results depend on the processing

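The 0 genes called between the stages became 37 without the low-count filter (13 higher, 24 lower), 57 with DESeq2, 2 in PGK alone and 1 in E14 alone. Leaving out single libraries gave 0 to 2. It stayed at 0 with the replicate block (766 genes at an unadjusted p under 0.05), RLE factors, limma-voom, all 20 libraries, day as a number, and without chromosome 11. With the E14 pairing crossed, 0 were called and 849 had an unadjusted p under 0.05. The replicate block changed no call of a printed gene. For the difference between the lines, the 0 calls became 158 without the filter, 31 with DESeq2, and 0 to 33 over the single libraries left out, with 33 without E14 diff2 at day 21 and 1, Nnat, without PGK diff3 at day 29; the replicate block left it at 0. The causes of these moves were not tested. The share of line in the sum of squares was 27.9% with a prior count of 1 and 26.9% without the filter. Of 42 genes with a printed fold change, 751 values under alternatives stayed on their side of the threshold with their sign, 46 passed it (24 of them with DESeq2), and 0 changed sign. Of the list medians under alternatives, 514 moved by no more than the SD of the 4 pair medians and 17 by more. Depth limits levels under the floor of 3 counts, 0.111 to 0.192 CPM in the 8 libraries compared.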

Other observations

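Several lists for other parts of cell physiology had few members past an unadjusted p under 0.05, where 2.83% of all genes were higher and 2.99% lower. Of 29 cell cycle genes 0 were higher and 1 lower at an unadjusted p under 0.05 (median 0.14), of 21 DNA methylation genes 0 and 1 (median 0.06), and of 17 Wnt targets 0 and 0 (median -0.07). Among 21 Nodal and activin pathway genes 2 were higher and 1 lower (median 0.12), among 24 amino acid stress genes 2 and 0 (median 0.13), and among 21 immediate early and heat shock genes 1 and 0 (median 0.14). Glycolysis and hypoxia genes, with 1 higher and 0 lower of 30, summed to 6767 and 8713 CPM in PGK and 13358 and 14923 CPM in E14 earlier, and to 9354, 7897, 9902 and 14213 CPM later. Their median differences had mixed signs, at 0.50 and -0.24 in the PGK pairs and -0.51 and 0.37 in the E14 pairs. Germ line genes silenced by DNA methylation had 1 higher and 0 lower of 12 and pair medians of 0.39, -1.02, -0.13 and -0.38 in the same order, X escape genes 1 and 0 of 12, and genes of the X inactivation centre and Y-linked genes 0 of 8 and 0 of 3. None of the 18 two-cell stage genes in the tables was tested, and they summed to at most 1.002 CPM in any library.

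Imprinted genes varied between single libraries. Of 44 tested, 2 were higher and 4 lower at an unadjusted p under 0.05, against 2.83% and 2.99% of all genes (median -0.02). Peg3, a paternally expressed zinc finger gene, measured 1393, 1054, 1046 and 926 CPM earlier and 1140, 851, 601 and 784 CPM later, lower in all 4 pairs (log2 fold change -0.40, SE 0.13, adjusted p = 0.742 with edgeR). H19, the maternally expressed RNA, measured 278 and 183 CPM in PGK earlier and 276 and 361 CPM later, and 0.611 to 9.40 CPM in E14. Nnat, a paternally expressed gene that was picked after its values were seen, measured 124 CPM in PGK diff2 at day 23 and 3.27 CPM at day 29, against 110 and 76.5 CPM in PGK diff3 and 0.817 to 1.82 CPM in E14. PGK diff2 at day 29, the library with the higher chromosome 11 level, also had the lowest Xist of the 4 PGK libraries, at 412 CPM, and an X chromosome median of -0.09. Whether these values are related was not tested.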
